A study of Mus musculus with 4 samples.

Results

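Transcripts of PML nuclear bodies and of the Sp100 family were followed in mouse CD8+ T cells with and without IFNα. The genes were Pml, Sp100, Sp110, Sp140, Daxx and Atrx, taken by gene name from the deposited count table, and all 6 were found among its 54532 genes. Naive CD8+ T cells were bead-isolated from spleens of C57BL/6 mice and activated for 48 h through CD3 and CD28 with antibodies, which stand in for antigen and costimulation. The 2 IFNα samples also received IFNα, a type I interferon, at 2000 U/ml, and the 2 control samples received none, with PBS named as the control treatment in a figure legend. Total counts lay between 16096121 and 17676062 per sample. The sources used here do not say that samples of a group came from separate animals or cultures, so the p-values reflect no more than the scatter among the 4 samples, and that scatter may be technical.

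PML nuclear bodies are round protein assemblies inside the nucleus. The PML protein forms their shell, and its attached SUMO groups, small protein tags, bind the SUMO-interacting stretches of partners such as Sp100 and Daxx. The bodies are known for intrinsic defence against DNA viruses, for holding back transcription of foreign DNA and for roles in apoptosis and senescence. Sp100 is a permanent resident of the bodies, and Sp110 and Sp140 are its leukocyte relatives with chromatin-reading modules. Daxx and Atrx work together as a chaperone and an ATPase that place the histone variant H3.3 into silent chromatin. PML and SP100 have long been known as interferon-inducible in human cells.

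In IFNα samples Daxx, Pml, Sp100 and Sp110 were higher, so 4 of the 6 genes rose and 0 fell at an adjusted p under 0.05. Daxx rose 5.49-fold, Pml 3.47-fold, Sp100 2.27-fold and Sp110 1.76-fold as ratios of mean CPM (counts scaled to TMM-adjusted library sizes, n = 2 each). Sp140 had a ratio of 1.46 and Atrx a ratio of 1.27, and neither passed the test. Of the 14417 genes tested, 1.43% were called higher and 0.222% lower by the same rule (edgeR's quasi-likelihood test, Benjamini-Hochberg adjusted over all genes tested). With a log2 fold change over 1 also required, Daxx, Pml and Sp100 remained, 3 of 6 genes, where 1.28% of all genes tested passed. Both IFNα samples lay above both controls for 5 of 6 genes, all but Atrx, against 23.1% of all genes tested. In bulk samples, fewer cells of a type and less RNA per cell cannot be told apart.

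The start regions of Sp100, Sp110 and Daxx are shown first, since Sp100 and Sp110 stand in one gene cluster and rose together, and since Daxx shares its start region with a transcript of the other strand. Each sequence is the strand of the gene, 5′ to 3′, from 250 bases before to 30 bases after a RefSeq transcription start (build GRCm38.p6). They lie at chr1:85649738-85650017 (plus strand), chr1:85598781-85599060 (minus strand) and chr17:33909195-33909474 (plus strand). Capitals mark the longest stretch that the Sp100 and Sp110 windows share but for 1 base, and in Daxx the 96 bases between the annotated ends of the antisense transcript BC051226 and Daxx.
Sp100: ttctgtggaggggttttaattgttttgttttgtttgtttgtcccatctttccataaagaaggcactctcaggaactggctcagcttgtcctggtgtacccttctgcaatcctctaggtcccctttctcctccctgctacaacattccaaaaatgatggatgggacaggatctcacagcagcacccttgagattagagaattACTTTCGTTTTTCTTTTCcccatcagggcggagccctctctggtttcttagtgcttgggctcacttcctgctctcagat
Sp110: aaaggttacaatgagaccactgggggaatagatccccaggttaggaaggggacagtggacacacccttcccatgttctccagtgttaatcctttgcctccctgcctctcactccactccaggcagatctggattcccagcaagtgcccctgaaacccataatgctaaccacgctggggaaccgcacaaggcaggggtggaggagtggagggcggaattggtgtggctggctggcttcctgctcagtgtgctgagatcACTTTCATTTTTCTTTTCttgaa
Daxx: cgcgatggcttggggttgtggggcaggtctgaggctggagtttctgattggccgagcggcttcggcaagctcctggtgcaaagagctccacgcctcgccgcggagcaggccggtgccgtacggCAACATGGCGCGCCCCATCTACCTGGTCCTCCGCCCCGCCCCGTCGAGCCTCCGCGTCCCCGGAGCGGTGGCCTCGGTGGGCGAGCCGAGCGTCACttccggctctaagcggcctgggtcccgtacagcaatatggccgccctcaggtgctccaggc

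The capital stretch of Sp100 and Sp110 reads ACTTTCNTTTTTCTTTTC, where N marks the base that differs, and its 18 bases read GAAAAGAAAAANGAAAGT on the other strand. It lay 49 to 32 bases before the start in Sp100 and 8 to 25 bases after the start in Sp110. This stretch was taken from the Sp100 and Sp110 windows themselves after they were seen, so its matches there were fixed in advance. Its share of all windows thus cannot be set beside the shares of the 2 motifs below. Searched on both strands, it occurred in 4 of 32851 RefSeq windows (0.0122%), namely 2 overlapping windows of Sp100, that of Sp110 and that of Gm7609, a pseudogene of the same cluster. Gm7609 had 5 and 3 counts in IFNα samples against 1 and 1 in controls, too few to be tested, and it was chosen after its counts were seen. A pair of textbook motifs was also searched on both strands of the windows, which run to 50 bases after the start. The core of the interferon-stimulated response element (GAAA, 2 bases of any kind, then GAAA) was in 3.44% of all windows and in 0 of the 10 windows of the 6 genes. It was present in the windows of Isg15 and Stat2, 2 of the 4 interferon response genes that had a window. TTCNNNGAA, the interferon gamma activated site, was in 8.3% of all windows and in 0 of the 10. The 2 motifs share letters and can overlap, and a missing match says only that these letters are not in these windows.

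Pml encodes the scaffold of the bodies, a RING finger protein of the TRIM family (ENSMUSG00000036986, chr9:58218076-58249786, minus strand, build GRCm38 as for all genes here). Its level was 637.1 and 609.1 CPM in IFNα samples, against 164.2 and 195.0 CPM in controls. Both IFNα samples stood well above either control, and the groups were far apart compared with the spread within each. The means were 623.1 ± 19.8 CPM in IFNα samples and 179.6 ± 21.8 CPM in controls (SD, n = 2 each). The log2 fold change was 1.79 ± 0.15 (SE), with a 95% interval of 1.42 to 2.17 and an adjusted p of 0.00509 (edgeR's quasi-likelihood test), which ranked Pml 182nd of 14417 genes by log2 fold change. Pml has 12 annotated transcripts, 7 of them coding, and the counts sum over all of them.

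Sp100 lies on chromosome 1 in a cluster with Sp140 and Sp110 (ENSMUSG00000026222, chr1:85649988-85709998, plus strand). Its protein binds the heterochromatin protein HP1 and represses incoming viral genomes. Sp100 had 789.7 and 749.5 CPM in IFNα samples, against 324.0 and 355.0 CPM in controls. The groups did not overlap, and the mean was 769.6 ± 28.4 CPM in IFNα samples and 339.5 ± 21.9 CPM in controls (SD, n = 2 each). The log2 fold change was 1.18 ± 0.14 (SE), with a 95% interval of 0.82 to 1.54 and an adjusted p of 0.0208 (edgeR's quasi-likelihood test). With only 1 IFNα sample in the fit the call was lost, at an adjusted p of 0.114 without IFNα replicate 1 and 0.0701 without IFNα replicate 2, with log2 fold changes of 1.15 and 1.22. Over all 17 settings of the processing the adjusted p of Sp100 lay between 5.84e-45 and 0.114, the lowest values coming from fits with 1 control left out.

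Sp110 encodes a nuclear body protein of leukocytes that was studied in mice as a candidate resistance gene for tuberculosis (ENSMUSG00000070034, chr1:85576899-85598817, minus strand). It had 393.5 and 384.4 CPM in IFNα samples, against 220.0 and 221.7 CPM in controls. Its replicates were close to each other in both groups, and the groups stood clearly apart. The means were 389.0 ± 6.44 CPM in IFNα samples and 220.8 ± 1.21 CPM in controls (SD, n = 2 each). The log2 fold change was 0.82 ± 0.12 (SE), with a 95% interval of 0.51 to 1.12 and an adjusted p of 0.0445 (edgeR's quasi-likelihood test), just under the threshold of 0.05 and below the fold of a log2 change of 1. The call was lost without IFNα replicate 1 (0.80, adjusted p = 0.596) and without IFNα replicate 2 (0.83, adjusted p = 0.475), and also under upper-quartile (0.75) and total-count (0.77) scaling, among other settings. Over the 17 settings the adjusted p of Sp110 lay between 1.29e-25 and 0.596.

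Sp140 encodes a bromodomain protein of immune cells that in mice restrains the type I interferon response (ENSMUSG00000070031, chr1:85600378-85645037, plus strand). It had 105.3 and 97.96 CPM in IFNα samples, against 71.09 and 68.31 CPM in controls. The groups did not overlap. The means were 101.7 ± 5.22 CPM in IFNα samples and 69.7 ± 1.97 CPM in controls (SD, n = 2 each), and the log2 fold change was 0.54 ± 0.12 (SE, 95% interval 0.25 to 0.84). It did not pass the adjustment over all genes (unadjusted p = 0.00449, adjusted p = 0.147, edgeR's quasi-likelihood test). The log2 fold change was 0.58 without control replicate 1 and 0.52 without control replicate 2. It was 0.49 without IFNα replicate 1 and 0.60 without IFNα replicate 2. Fits without 1 of the controls take their spread from the IFNα pair alone.

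Within the Sp100 cluster, the log2 fold changes thus stood in the order Sp100, Sp110, Sp140, with 1.18, 0.82 and 0.54. The difference between these genes was not tested. Sp100 and Sp140 share annotated bases with Gm17017, an antisense transcript with 222 counts over the 4 samples. Whether the counting used strand is not stated in the labels or methods, and reads of overlapping genes may not be told apart. The cluster of the mouse also holds near copies of Sp100 family exons, so reads of these 3 genes may be shared with such copies, and their levels are uncertain to that extent. Some Sp100 relatives had too few reads to be tested. Of these, Csprs, Gm2666, Gm7592 and Gm15433, chosen after their counts were seen, had 1 to 6 counts per IFNα sample. They had 0 in both controls. A530032D15Rik, another of these relatives, overlapped between groups, with 7 and 1 counts in IFNα samples against 1 and 2 in controls. Few counts in such rows do not show how many reads were shared.

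Daxx encodes the chaperone that carries H3.3 and that SUMO-modified PML draws into the bodies (ENSMUSG00000002307, chr17:33909414-33915589, plus strand). It showed the largest log2 fold change of the 6 genes. Its level was 535.3 and 528.0 CPM in IFNα samples, against 105.6 and 87.96 CPM in controls. The IFNα samples were nearly equal, and each stood far above either control. The means were 531.7 ± 5.16 CPM in IFNα samples and 96.8 ± 12.5 CPM in controls (SD, n = 2 each). The log2 fold change was 2.46 ± 0.15 (SE), with a 95% interval of 2.09 to 2.82 and an adjusted p of 0.00156 (edgeR's quasi-likelihood test), which ranked Daxx 109th of 14417 genes. No other annotated row overlaps that of Daxx.

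Atrx encodes the SNF2-type ATPase that acts with Daxx at telomeres and pericentromeric repeats (ENSMUSG00000031229, chrX:105797615-105929403, minus strand). It had 455.1 and 436.3 CPM in IFNα samples, against 222.2 and 480.7 CPM in controls. The IFNα samples lay between the controls, which differed from each other by a log2 value of 1.11. The means were 445.7 ± 13.3 CPM in IFNα samples and 351.5 ± 182.8 CPM in controls (SD, n = 2 each), and the log2 fold change of 0.34 ± 0.35 (SE) had a 95% interval from -0.52 to 1.21 (adjusted p = 0.707, edgeR's quasi-likelihood test). Thus no change was detected, and the interval spans changes of either sign. Without control replicate 1 the log2 fold change was -0.11, and without control replicate 2 it was 1.01 and passed the test (adjusted p = 1.73e-35, in a fit whose spread comes from the IFNα pair alone). Over the 17 settings the adjusted p of Atrx lay between that value and 0.9998. The Daxx and Atrx transcripts thus differed in whether they passed the test, and the difference between their fold changes was not tested.

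The gap between the Atrx controls ranked 177th of 10105 genes with a mean of at least 5 CPM. The controls differed with gene length. Among the longest 2021 of these genes, from 7515 exon bases up, the median log2 value of control replicate 2 over replicate 1 was 0.38, and among the shortest 2023, up to 2394 bases, it was -0.37. The same medians for IFNα replicate 2 over replicate 1 were -0.04 and 0.09. The fold changes of IFNα over control also differed with length, with a median log2 value of 0.17 among the longest genes and -0.19 among the shortest. Atrx has 21757 exon bases, the most of the 6 genes, and a fit with an offset for gene length gave it a log2 fold change of 0.02. Daxx has 3058 exon bases and moved the other way between controls, with a log2 value of -0.26, while Pml (5571 bases) had 0.25, Sp100 (7556 bases) 0.13, Sp110 (6781 bases) 0.01 and Sp140 (3328 bases) -0.06. The part of length in these gaps was not tested.

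**Figure D1:**
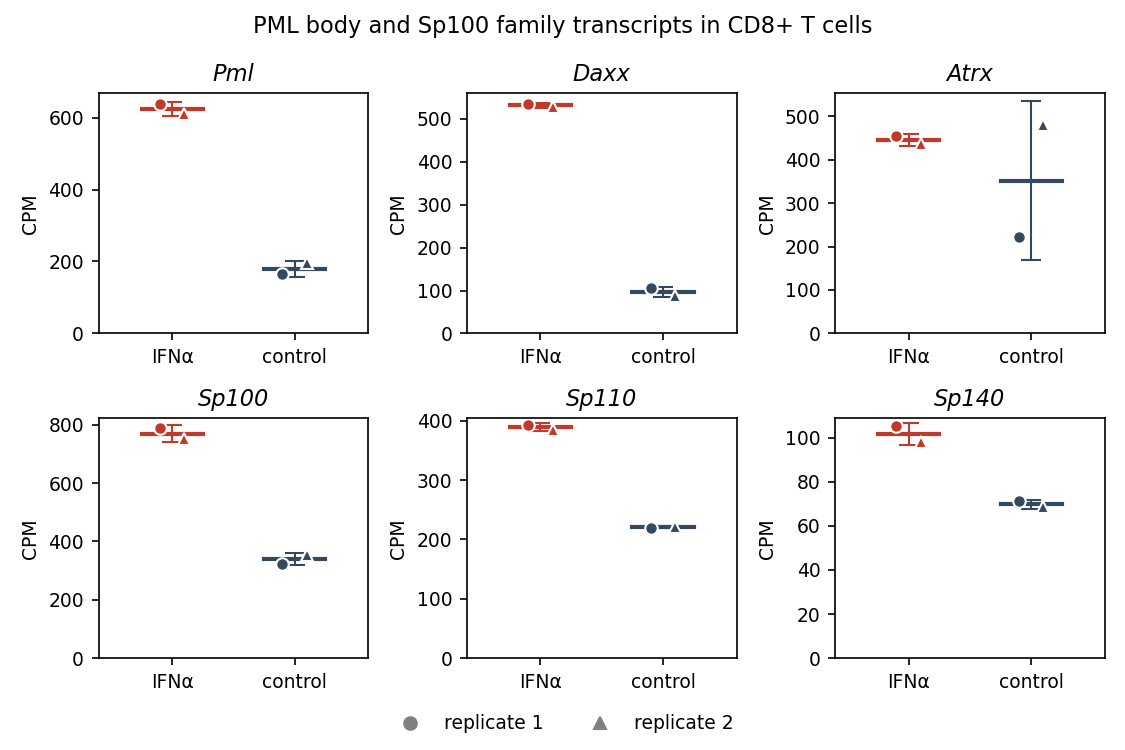
Each panel plots 1 gene in CPM (TMM-scaled, axis from 0), with IFNα samples left and control samples right. Circles are replicate 1, triangles are replicate 2, and bars show the mean and SD of 2 samples. The IFNα samples lie above both controls in every panel but that of Atrx, whose controls stand at 222.2 and 480.7 CPM.

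Levels were compared between genes per kilobase of exon, as RPKM on TMM-scaled library sizes. In IFNα samples the order by mean RPKM was Daxx (173.9 ± 1.69), Pml (111.9 ± 3.56), Sp100 (101.9 ± 3.76), Sp110 (57.4 ± 0.95), Sp140 (30.5 ± 1.57) and Atrx (20.5 ± 0.61), with SD and n = 2. No neighbours in this order overlapped between samples. In controls the order was Sp100 (44.9 ± 2.9), Sp110 (32.6 ± 0.18), Pml (32.2 ± 3.91), Daxx (31.7 ± 4.09), Sp140 (20.9 ± 0.59) and Atrx (16.2 ± 8.4). Here Sp110 and Pml overlapped, as did Pml and Daxx, and Sp140 and Atrx. Daxx thus led by RPKM in IFNα samples, while in controls, at 34.6 and 28.8, it lay below Sp100 and overlapped both Pml and Sp110 (32.4 and 32.7).

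This order depends on which length is used. The exon length covers all annotated transcripts, and for Sp100 it is 7556 bases while its longest coding transcript has 2708. With the longest coding transcript as the length, a choice made after the lengths were seen, mean RPKM in IFNα samples was highest for Sp100 (284.2), followed by Sp110 (202.5), Daxx (198.9), Pml (139.1), Atrx (43.4) and Sp140 (42.1), of which Sp110 and Daxx overlapped, as did Atrx and Sp140. In controls it was 125.4 for Sp100, 114.9 for Sp110, 40.1 for Pml, 36.2 for Daxx, 34.2 for Atrx and 28.8 for Sp140, where Pml and Daxx, Daxx and Atrx, and Atrx and Sp140 overlapped. Daxx had an RPKM below that of Sp100 in both groups on this scale.

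**Figure D2:**
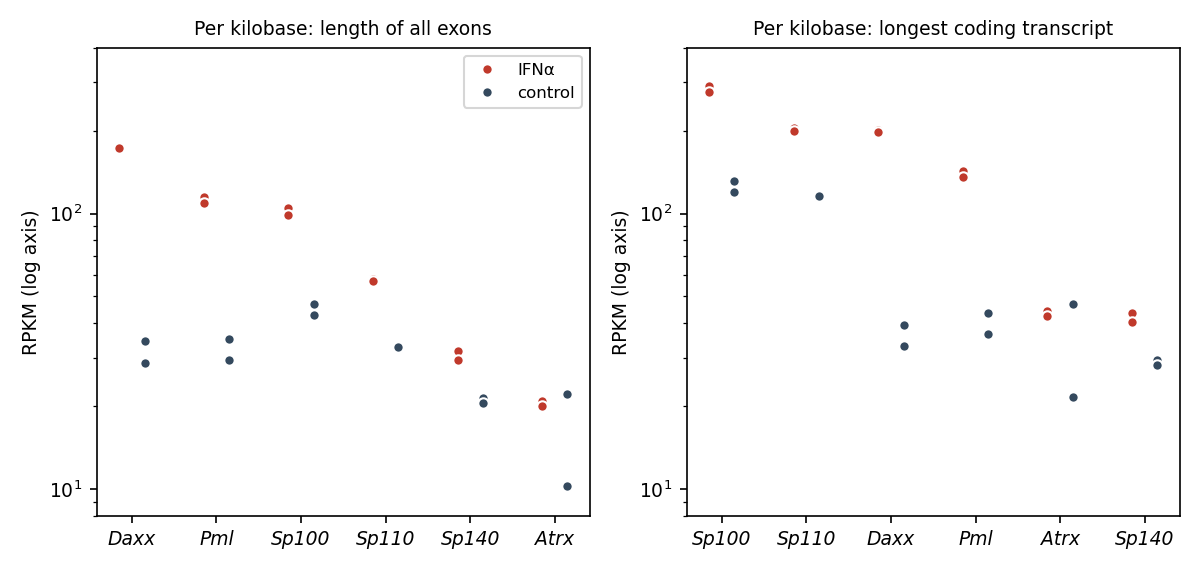
RPKM of each gene in each sample on a log axis, per kilobase of all exons (left) and of the longest coding transcript (right), with IFNα samples in red to the left and controls in blue to the right, n = 2 each. Daxx leads the IFNα samples on the left scale, at a mean of 173.9, and Sp100 leads on the right scale, at 284.2.

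The other genes of the same pathways were read from 6 lists of 87 genes in the table, of which 79 were tested. Over these lists 2 genes were higher and 0 lower, where 1.43% of all genes tested were higher and 0.222% lower by the same rule. At an unadjusted p under 0.05, 5 of the listed genes were higher and 2 lower (edgeR's quasi-likelihood test). The share of all genes at that unadjusted threshold was not counted. The median log2 fold change of the listed genes was 0.07, and the median over all genes tested was -0.01. Without control replicate 1, 12 of these genes were higher and 5 lower, where 1136 of all genes were higher and 947 lower in the same fit. Without control replicate 2, 34 were higher and 16 lower, where 3446 of all genes were higher and 3257 lower. Leaving out IFNα replicate 1 or IFNα replicate 2 also changed how many of the listed genes were called higher.

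Both genes called higher were among 20 PML body residents and partners, all tested, of which 15 had a log2 fold change above 0 (median 0.21). Isg20, an exonuclease that degrades RNA and was found in PML bodies in human cells, had 129.4 and 133.4 CPM in IFNα samples, against 6.36 and 5.18 CPM in controls. Its log2 fold change was 4.51 ± 0.15 (SE, adjusted p = 0.000233, edgeR's quasi-likelihood test), larger than that of any of the 6 genes. Morc3, an ATPase that forms bodies with PML, had 151.3 and 142.4 CPM in IFNα samples, against 70.2 and 81.2 CPM in controls. Its log2 fold change was 0.96 ± 0.13 (SE, adjusted p = 0.0344, edgeR's quasi-likelihood test). The other 18 genes of this list did not pass.

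Of 17 genes for SUMO conjugation and removal, 0 passed in either direction (1 higher and 0 lower at an unadjusted p under 0.05), with a median log2 fold change of 0.06 and 11 above 0. Senp5, a SUMO protease, had 64.2 and 65.1 CPM in IFNα samples, against 43.6 and 55.1 CPM in controls (log2 fold change 0.39, adjusted p = 0.435, edgeR's quasi-likelihood test). Ranbp2, a SUMO ligase of the nuclear pore, had 493.3 and 474.7 CPM in IFNα samples, against 218.0 and 403.8 CPM in controls (0.64, adjusted p = 0.500). Sumo2, chosen after its counts were seen, had 2313 and 849 counts in IFNα samples, against 3019 and 2720 in controls, so the IFNα samples differed from each other more than the controls did. Of 9 genes for PML turnover, 0 passed (0 at an unadjusted p under 0.05), and their median log2 fold change was 0.06. Rnf4, the ubiquitin ligase that recognises SUMO-modified PML, had 172.6 and 175.0 CPM in IFNα samples, against 154.7 and 148.4 CPM in controls (0.20, adjusted p = 0.58). Ube3a, another ligase for PML, had 115.9 and 115.3 CPM in IFNα samples, against 62.4 and 104.5 CPM in controls (0.47, adjusted p = 0.548).

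Of 19 genes for H3.3 deposition and heterochromatin, 0 passed in either direction (0 higher and 2 lower at an unadjusted p under 0.05), with a median log2 fold change of -0.03. H3f3a, which encodes H3.3, had 174.6 and 185.9 CPM in IFNα samples, against 244.4 and 216.4 CPM in controls (log2 fold change -0.35, adjusted p = 0.408, edgeR's quasi-likelihood test). H3f3b also encodes H3.3 and was chosen after its values were seen. It had 617.4 and 660.3 CPM in IFNα samples, against 682.0 and 539.4 CPM in controls. Its log2 fold change was 0.07 (adjusted p = 0.895, edgeR's quasi-likelihood test), and the groups overlapped. Asf1b, a histone chaperone upstream of deposition, had 59.5 and 60.4 CPM in IFNα samples, against 81.1 and 74.3 CPM in controls (-0.38, adjusted p = 0.335). Of all genes tested, 1.43% were called higher and 0.222% lower by the same rule, so 0 of 19 is near that share. Daxx passed the test while Atrx and these 19 genes did not. The differences between their fold changes and that of Daxx were not tested.

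Among the SAND domain genes and Sp100 relatives, 12 were in the table and 5 tested, and 0 passed (1 higher at an unadjusted p under 0.05). A530040E14Rik, an antisense transcript in the cluster, had 7.15 and 7.26 CPM in IFNα samples, against 4.16 and 3.65 CPM in controls (log2 fold change 0.88, adjusted p = 0.168, edgeR's quasi-likelihood test). C130026I21Rik had 0.188 and 1.80 CPM in IFNα samples, against 0.116 and 0.57 CPM in controls, with overlapping groups. Of 10 death and stress signalling partners of Daxx, 9 were tested and 0 passed (0 at an unadjusted p under 0.05), with a median log2 fold change of 0.02. Mapk9, the JNK2 kinase, had 76.2 and 78.1 CPM in IFNα samples, against 62.1 and 65.2 CPM in controls (0.28, adjusted p = 0.466). Ripk3, a kinase of necroptosis, had 45.4 and 44.4 CPM in IFNα samples, against 61.0 and 50.4 CPM in controls (-0.31, adjusted p = 0.504).

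For scale, 5 of 6 well known interferon response genes were higher and 0 lower, with a median log2 fold change of 3.42. Mx1, an antiviral GTPase, had 606.0 and 569.1 CPM in IFNα samples, against 8.55 and 9.63 CPM in controls (log2 fold change 6.01, adjusted p = 0.000102, edgeR's quasi-likelihood test). Stat2, a signal carrier of the interferon receptor, had 403.8 and 383.0 CPM in IFNα samples, against 73.8 and 81.5 CPM in controls (2.34, adjusted p = 0.000974). The log2 fold change of Daxx was near that of Stat2 and well under that of Mx1.

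**Figure D3:**
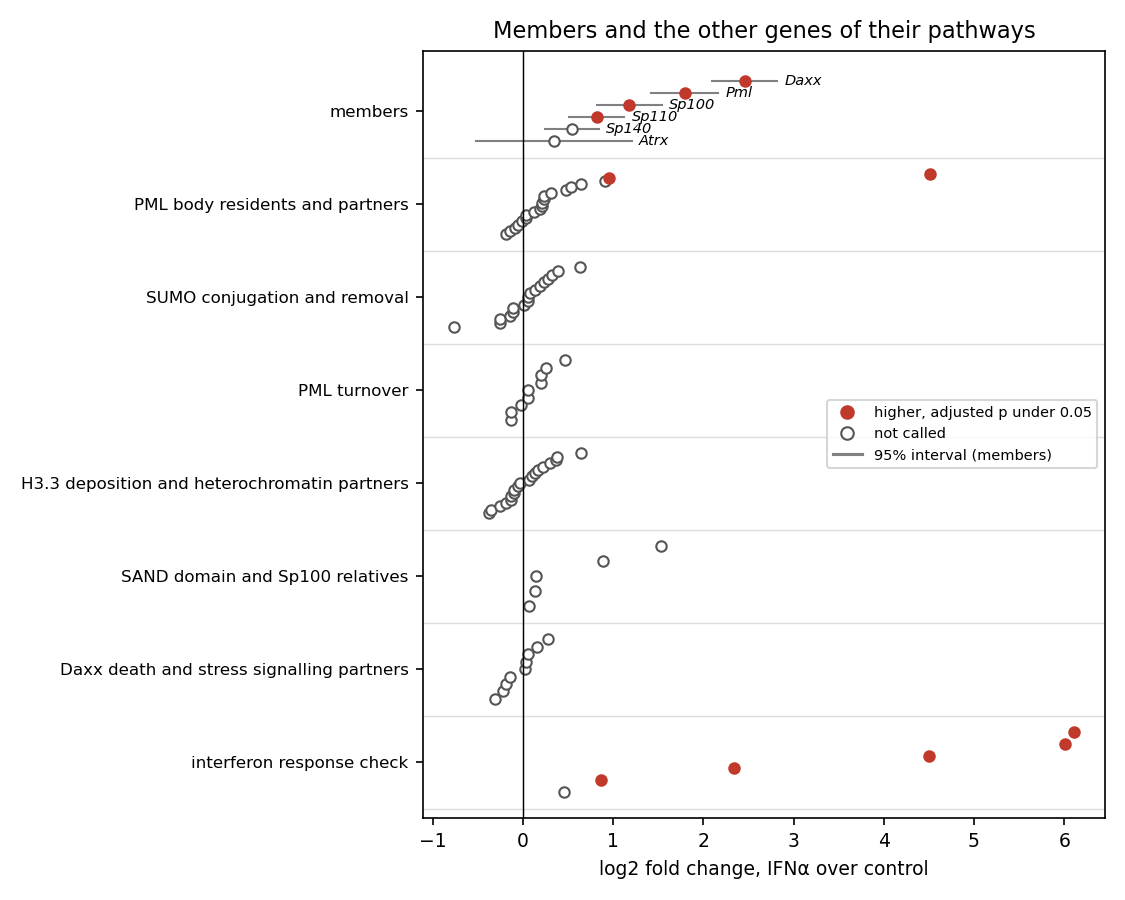
Log2 fold changes of IFNα over control for the 6 genes with their 95% intervals and for each tested gene of the other lists, 1 point per gene. Filled points passed an adjusted p under 0.05, which 4 of the 6 genes and 2 of the 79 listed pathway genes did, besides 5 of 6 interferon response genes in the bottom row.

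Neighbouring genes were taken within 1 Mb of the Sp100 cluster and within 0.2 Mb of Pml, Daxx and Atrx. Of 147 such genes 56 were tested and 0 passed in either direction, where 1.43% of all genes tested were higher and 0.222% lower. At an unadjusted p under 0.05, 7 neighbours were higher and 5 lower (edgeR's quasi-likelihood test). For all genes the share at this unadjusted threshold was not counted, and the shares above are for the adjusted rule. The median log2 fold change of the 56 neighbours was -0.05. Other tests called up to 5 of them higher, DESeq2 among them with 3, where DESeq2 called 346 of all genes higher and edgeR's exact and likelihood ratio tests 424 and 430. In the same fits without 1 of the controls, in which calls over all genes also grew, 11 to 14 neighbours were higher and 3 to 21 lower.

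The 3 largest log2 fold changes among the tested neighbours of Daxx belonged to genes beside it. BC051226, whose row on the other strand ends 97 bases before that of Daxx, had 24.5 and 26.4 CPM in IFNα samples, against 13.3 and 7.69 CPM in controls (log2 fold change 1.27, adjusted p = 0.127, edgeR's quasi-likelihood test). Platr17, 2739 bases before Daxx and chosen after its values were seen, had 6.02 and 7.38 CPM in IFNα samples, against 2.25 and 1.37 CPM in controls (1.88, adjusted p = 0.064). Tapbp, which encodes the peptide-loading protein tapasin and whose row starts 310 bases after Daxx and spans that of Zbtb22, had 685.7 and 693.0 CPM in IFNα samples, against 460.1 and 378.8 CPM in controls (0.72, adjusted p = 0.153). In all 3 both IFNα samples lay above both controls, as in 23.1% of all genes tested, and none passed the adjustment. Among the tested neighbours of Daxx, 7 had both IFNα samples above both controls and 11 had both below. Zbtb22, also beside Daxx and also chosen after its values were seen, lay the other way (-0.52, adjusted p = 0.198). Over the 28 tested neighbours of Daxx the median log2 fold change was -0.18, and 8 were above 0.

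Around the Sp100 cluster 23 of 79 neighbours were tested, with a median log2 fold change of -0.01. A630001G21Rik, a protein-coding gene 7085 bases after Sp100, had 103.0 and 92.3 CPM in IFNα samples, against 108.5 and 107.7 CPM in controls (log2 fold change -0.15, adjusted p = 0.662, edgeR's quasi-likelihood test). On the other side, the nearest tested gene to Sp110 was Gm16026, at a distance of 291408 bases (0.67, adjusted p = 0.639). Beside Pml, Stoml1 lies 3378 bases from its start and had 76.9 and 72.3 CPM in IFNα samples, against 58.4 and 48.3 CPM in controls (0.48, adjusted p = 0.286), and Cyp11a1 lies 191053 bases past its other end (0.92, adjusted p = 0.449). Magt1, 38681 bases from the start of Atrx, was the nearest tested gene there (0.15, adjusted p = 0.665).

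**Figure D4:**
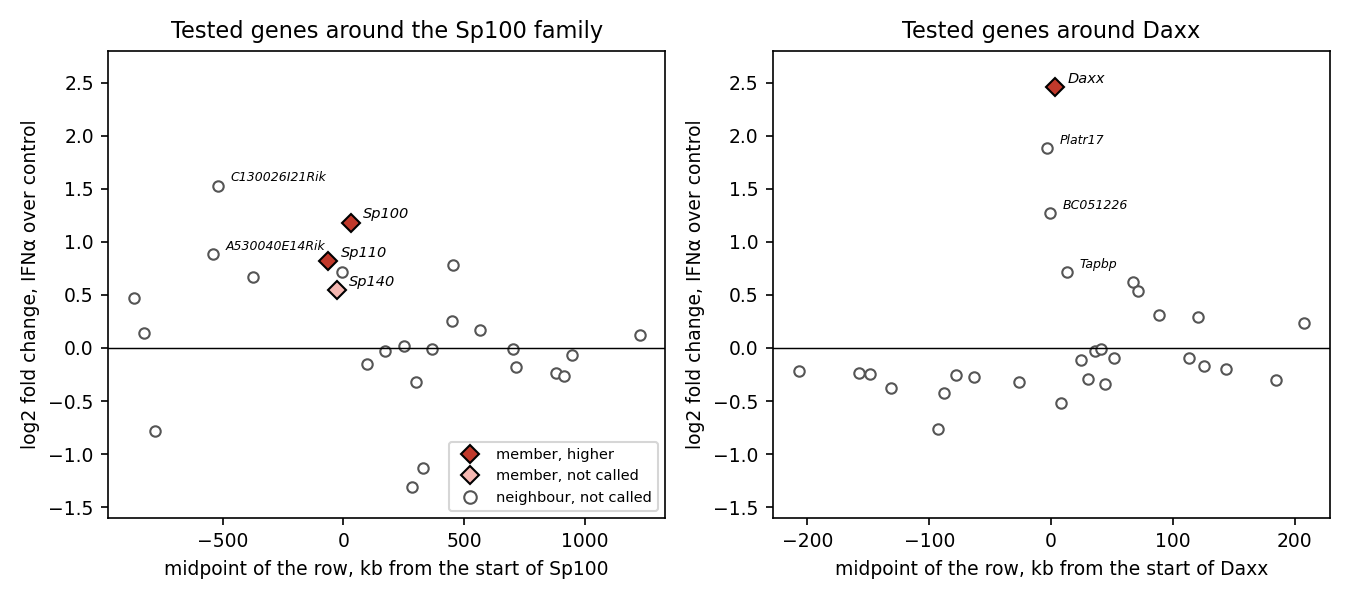
Log2 fold change of IFNα over control for every tested gene within 1 Mb of the Sp100 cluster (left) and within 0.2 Mb of Daxx (right), against the distance of the midpoint of each gene from the start of Sp100 or Daxx in kb. Diamonds are Sp100, Sp110, Sp140 and Daxx, filled dark where called higher, and open circles are neighbours, 0 of which passed the test.

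For each called gene the 2 most similar protein-coding genes were found among 9428 genes, as the smallest Euclidean distance between log2 CPM values centred on the mean of each gene over the 4 samples. For Daxx these were Jaml (distance 0.102) and Lgals3bp (0.109), with log2 fold changes of 2.55 and 2.44. For Pml they were Ifi214 (0.101) and Trim25 (0.125), with 1.79 and 1.92. For Sp100 they were Mndal (0.0357) and Apobec1 (0.0511), with 1.18 and 1.24. For Sp110 they were Tor1aip1 (0.0369) and Serpini1 (0.0596), with 0.79 and 0.80. Of these 8 genes Serpini1 did not pass the test (adjusted p = 0.0799), while the others had adjusted p values from 0.000829 to 0.0404 (edgeR's quasi-likelihood test). The measure rests on 4 values per gene. These genes were picked for a profile near that of a called gene. Their like fold changes, and with them most of their calls, therefore follow from the choice and are no separate result.

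The label of the cells was checked against markers. All 8 CD8+ T cell markers were detected, with summed levels of 3497 and 3655 CPM in IFNα samples, against 4047 and 3255 CPM in controls. Macrophage and monocyte markers summed to 12.1 and 15.2 CPM in IFNα samples, against 25.5 and 23.3 CPM in controls, with all 7 detected and Lyz2 lower (adjusted p = 0.0297, edgeR's quasi-likelihood test). The 7 B cell markers, all detected, summed to 13.4 and 13.1 CPM in IFNα samples, against 20.2 and 18.5 CPM in controls. The 6 dendritic cell markers, all detected, lay between 4.47 and 6.04 CPM in sum over the samples, and the 4 CD4+ T cell markers, all detected, between 5.66 and 7.69 CPM. NK cell markers summed to 253.7 and 248.5 CPM in IFNα samples, against 82.8 and 84.4 CPM in controls, nearly all of it Eomes, which activated CD8+ T cells also express, while Klra8 was at 0 in all samples. The summed myeloid and B cell markers were lower in IFNα samples, where Daxx, Pml, Sp100 and Sp110 were higher, and 1 gene carried most of each difference. Lyz2 had 4.96 and 6.10 CPM in IFNα samples, against 16.5 and 14.0 CPM in controls, while Fcgr1 lay the other way with 9 and 10 counts in IFNα samples, against 1 and 1 in controls. Cd79b had 8.03 and 7.61 CPM in IFNα samples, against 16.2 and 12.4 CPM in controls, while the ratio of mean CPM was 1.03 for Cd79a and 1.39 for Cd22. The part of these markers in the results was not tested.

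**Figure D5:**
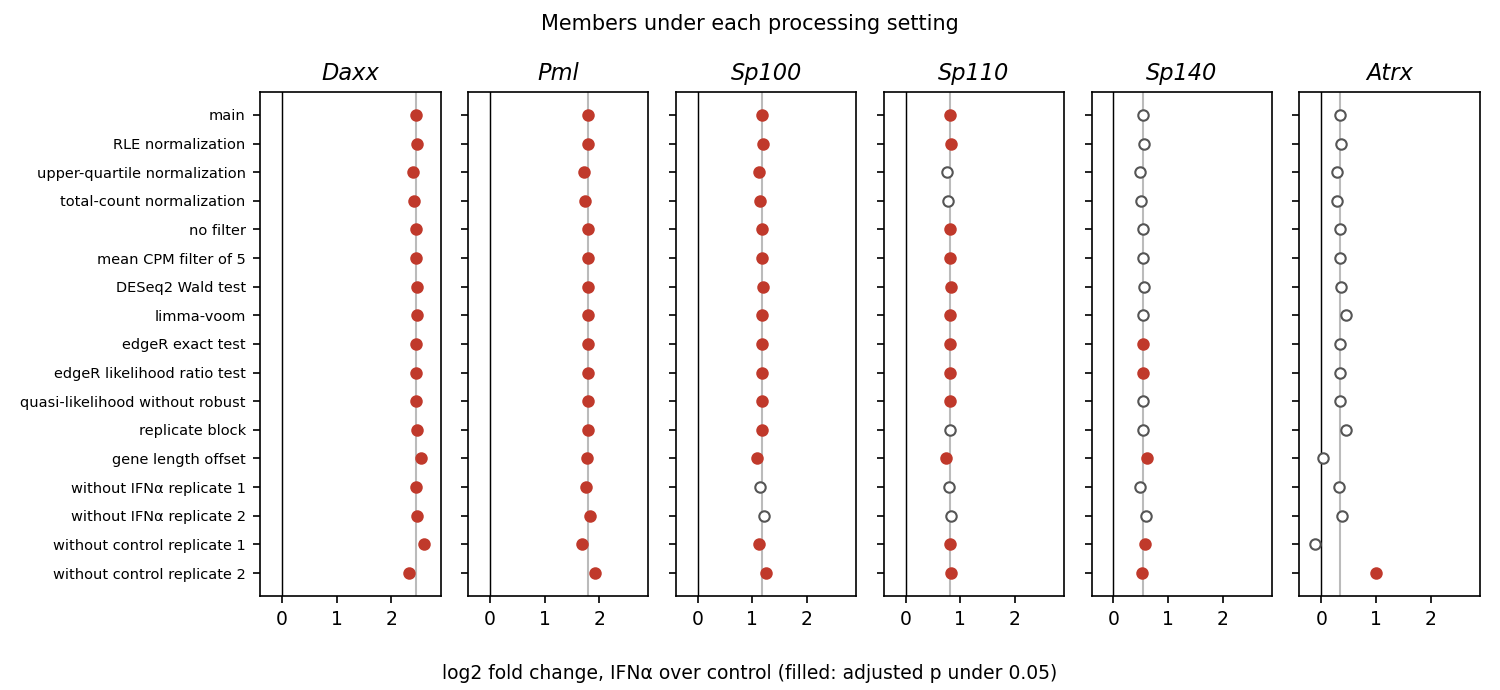
Log2 fold change of IFNα over control for each of the 6 genes under 17 settings of the processing, with a panel per gene and the value in the text as a grey line. Filled points passed an adjusted p under 0.05, which Daxx and Pml did under all 17 settings, while the points of Atrx spread from -0.11 to 1.01.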

How the data were processed

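RNA-seq counts of 2 IFNα and 2 control samples were used. The authors deposited raw counts, whole numbers that are not normalized, made with featureCounts (Subread) from Hisat2 alignments of HiSeq reads (NEBNext Ultra libraries). Whether strand was used in counting is not stated. Processing notes name mm9, but 53585 of 54532 gene positions in the deposited table are those of GENCODE M21 on GRCm38, which is used for coordinates. The single-sample files held the same counts as the table (0 differed).

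Genes were filtered with filterByExpr (minimum count 10, minimum total 15), which left 14417, and tested in R 4.3.3 with edgeR 4.0.16 after TMM scaling (factors 0.992 and 0.976 in IFNα samples, 0.997 and 1.04 in controls). The model held the condition alone. It used the robust form of glmQLFit followed by glmQLFTest, with 2 residual degrees of freedom, a median of 3.74 prior ones and a common dispersion of 0.0243. The call was an adjusted p (Benjamini-Hochberg, all genes tested) under 0.05, and the study's own rule added a log2 fold change over 1 in size. SEs were derived from the moderated quasi-dispersion. CPM and RPKM were computed here from the deposited counts.

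The 6 genes, the gene lists and the tests were chosen with earlier results of these data known. Named were all 6 genes, up to 4 called genes of a list by largest change or the 2 of smallest p where fewer than 2 passed, the nearest tested genes on either side, and the 2 genes most similar to each called gene with a mean of at least 5 CPM. Start windows came from the RefSeq table (GRCm38.p6), in which all 6 genes matched. The alternatives tried were scaling by RLE, by upper quartile and by total counts, no filter or a filter at a mean of 5 CPM, DESeq2 1.42.0, limma-voom (limma 3.58.1), edgeR's exact, likelihood ratio and non-robust tests, a replicate block, a gene length offset and leaving out each sample. Protein sequences were not used here.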

Additional observations from a re-analysis of the deposited data

How the results depend on the processing

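Daxx and Pml passed under all 17 settings, with log2 fold changes of 2.33 to 2.60 (highest adjusted p = 0.00229) and 1.68 to 1.93 (highest 0.00816), by edgeR's quasi-likelihood test or the tool of that setting. Leaving out each sample in turn gave 1.12 to 1.25 for Sp100 and 0.80 to 0.83 for Sp110, both not called without either IFNα sample, 0.49 to 0.60 for Sp140, called without either control, and -0.11 (reversed, without control replicate 1) to 1.01 (called, without control replicate 2) for Atrx. The cause was not tested. Of the 6 genes, 2 to 6 were then called higher, of the pathway genes 1 to 34 higher and 0 to 16 lower, of the neighbours 1 to 14 higher and 0 to 21 lower, and of all genes 216 to 3446 higher and 23 to 3257 lower. Fits with 1 sample in an arm assume that it varies like the other arm, so calls without a control rest on the spread of the IFNα pair.

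Sp110 was not called with upper-quartile scaling (0.75, adjusted p = 0.058) or total-count scaling (0.77, adjusted p = 0.0622), and total-count scaling left 1 pathway gene higher. Sp140 was called with edgeR's exact test (0.54, adjusted p = 0.0247), its likelihood ratio test (0.54, adjusted p = 0.0237) and the length offset (0.61, adjusted p = 0.0252), and its adjusted p over all settings lay between 1.56e-11 and 0.998. Of the neighbours, 3 were higher with no filter and 3 with DESeq2, and 5 each with the exact test, the likelihood ratio test and the length offset. Of all genes, 356 were higher and 138 lower with no filter, 346 and 87 with DESeq2, 424 and 224 with the exact test, 430 and 233 with the likelihood ratio test, and 358 and 102 with the length offset, where 206 and 32 were called in the values of the text.

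Replicate numbers are not stated to pair samples, and same-numbered samples did not deviate together (r = -0.145 over 14417 genes). With the replicate number as a block Sp110 was not called (0.82, adjusted p = 0.0895), 2 neighbours were higher and 57 of all genes were lower, and no other of the 6 genes changed its call. With the numbers crossed, a pairing chosen after seeing the data, 5 of the 6 genes, 8 pathway genes, 6 neighbours and 743 of all genes were called higher and 1 neighbour and 340 of all genes lower.

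RPKM on total counts moved beyond the replicate SD to 56.4 for Sp110 and 170.8 for Daxx in IFNα samples and to 33.1 for Sp110 in controls, with the same order of genes. Depth does not limit the 6 genes, which had 1199 to 12908 counts per sample, whereas 2 samples per group limit every p.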
